A study of Drosophila melanogaster with 6 samples.

Results

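The insulin and TOR growth pathway was read in eye imaginal discs of *Drosophila* larvae through 9 genes, *InR*, *chico*, *foxo*, *Thor*, *Tor*, *S6k*, *Tsc1*, *gig* and *Rheb*, chosen by name as core pathway components. A gene counted as measured where the platform annotation, with symbols updated through RefSeq, names a probe set for it alone. This held for 7 of the 9 genes, among 11982 genes read in all, and each of the 7 has a single probe set. *Tor* is listed under its current symbol *mTor* and is not to be confused with *tor* (torso) or *Torsin*. *Thor*, which encodes the translation inhibitor 4E-BP, and *Rheb*, the small GTPase that activates TOR, are not analysed here.

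The study compared 3 arrays of wild type (*w1118*) with 3 arrays of larvae of the genotype *w; mir-998[exc222]*, all from eye discs of wandering late larvae (the third larval instar) raised at 25°C. The *exc222* allele carries a remnant of a P element inside the hairpin of *mir-998*, a microRNA in the last intron of the *E2f1* gene, and the paper describes the arrayed mutants as homozygous. It is 1 allele, recovered as an imprecise excision, and it removes the microRNA in the whole animal and not in the eye alone. The paper obtained it by several rounds of P element transposition from an insertion line of the *E2f1* gene and states no backcross to *w1118*. The loss of *mir-998* and a difference in stock background therefore cannot be told apart on these arrays. Values are on the log2 scale after rma processing, which brings all arrays to a common distribution, so that 1 unit is a 2-fold difference. Depth has no meaning for arrays, and the number of arrays limits the precision. The titles number the arrays of a genotype as biological replicates but name no separate crosses, and each p-value therefore rests on a spread that may be technical in part.

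Insulin-like peptides bind the receptor tyrosine kinase InR, which recruits the adaptor Chico and turns on PI3-kinase and Akt. Akt keeps the transcription factor Foxo out of the nucleus and restrains the Tsc1/Gigas complex, which otherwise holds Rheb, and with it the kinase TOR, inactive. TOR complex 1 (TORC1) in turn activates S6 kinase, inhibits 4E-BP and suppresses autophagy. In imaginal discs the pathway is known for setting cell size, growth and final organ size, and in the eye it also affects when photoreceptors differentiate. Much of this control acts through protein phosphorylation, which RNA levels do not show.

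None of the 7 measured genes passed the test between genotypes, which was limma with Benjamini-Hochberg adjustment over all 18769 probe sets and a threshold of 0.05. By the same rule 1.93% of all genes read were called, so a count of 0 among 7 genes lies near the background share. At an unadjusted p under 0.05 there was 1 gene of the 7, *gig*, against 13.9% of all genes read. The 7 log2 fold changes ran from -0.42 for *foxo* to 0.37 for *gig* with a median of 0.05, beside a median of 0.0033 over all genes. For 6 of the 7 the 95% interval lay within 0.57 log2 units of 0 on either side, and for *foxo* the farther bound was -0.86, so for all 7 a 2-fold difference lay outside the interval.

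**Figure D1:**
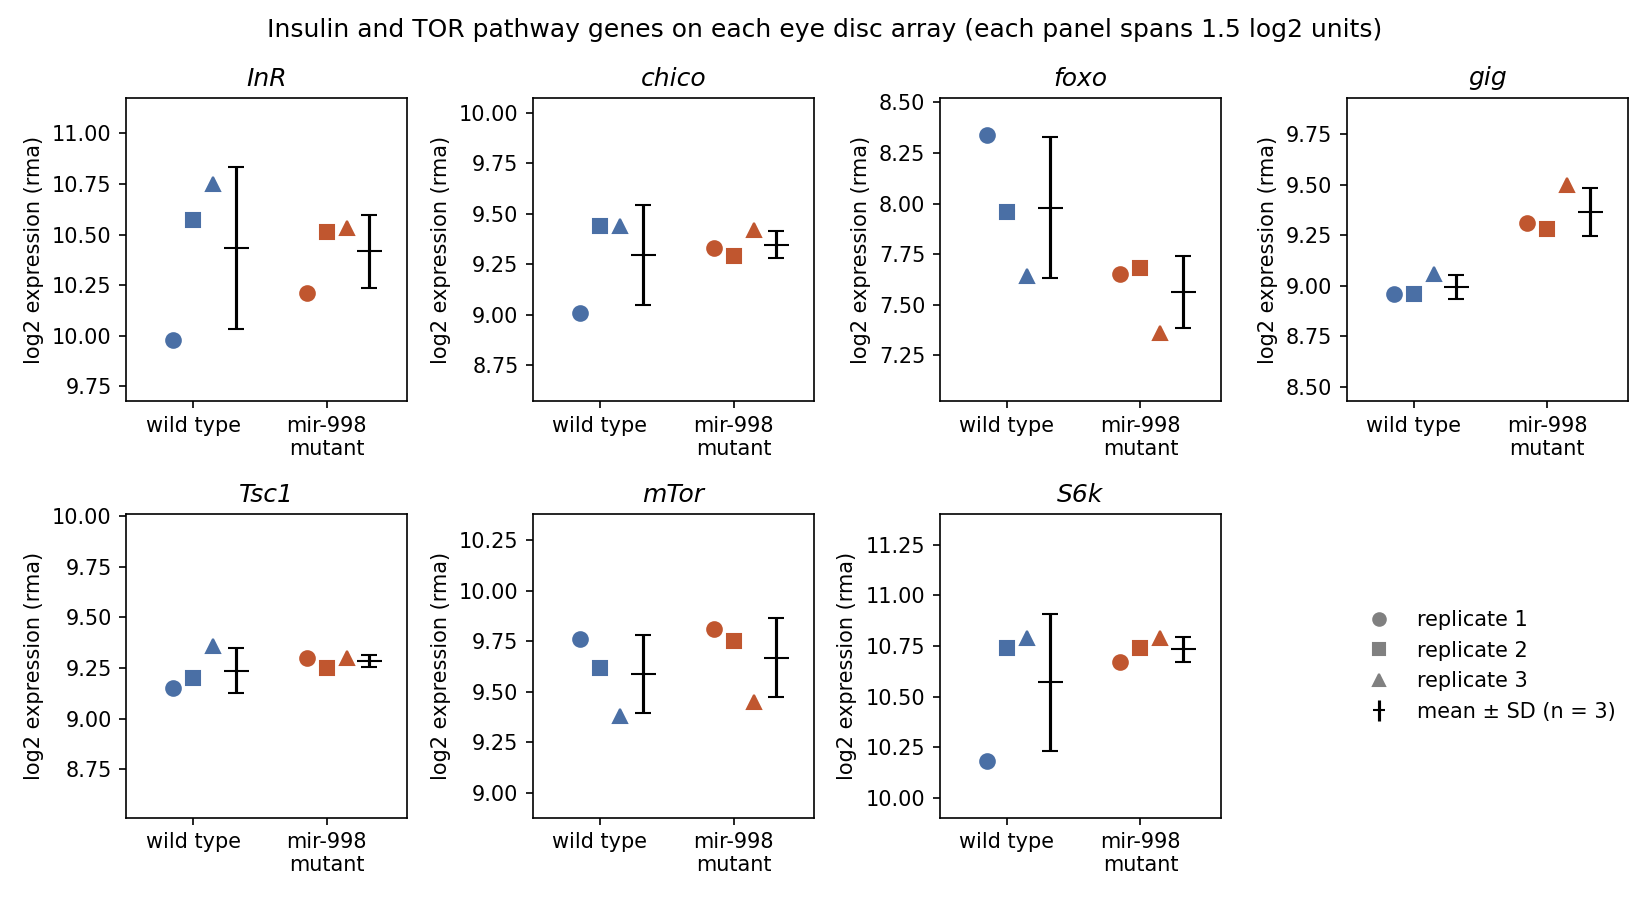
Log2 expression (rma, vertical axis) of the 7 measured insulin and TOR pathway genes on each array, with wild type in blue and *mir-998* mutants in orange, replicates 1 to 3 as circle, square and triangle, and mean ± SD (n = 3) in black. The 3 *gig* values of the mutant sit at 9.28 to 9.50, all above wild type, while in the other 6 genes the genotypes overlap and wild type replicate 1 is often the lowest or highest point.

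*gig*, which encodes the fly TSC2 protein Gigas, the inhibitory partner of Tsc1, read log2 8.96, 8.96 and 9.06 on the wild type arrays against 9.31, 9.28 and 9.50 on the mutant arrays. It was the only one of the 7 genes whose arrays did not overlap between genotypes, higher in 3 of 3 mutant arrays. Over all genes read, 9.37% had non-overlapping arrays with the mutant higher and 8.73% with the mutant lower, 18.1% in all. The means were 8.99 ± 0.06 (SD, n = 3) and 9.36 ± 0.12 (SD, n = 3), a 1.29-fold difference (95% interval 1.13 to 1.48). On the log2 scale the difference was 0.37 with a standard error (SE) of 0.08, and it did not pass limma (adjusted p = 0.111). An exact two-sided permutation test of its 6 values gave p = 0.1, the smallest that 3 arrays against 3 allow.

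*Tsc1*, whose product forms the complex with Gigas, differed less. Its values were 9.15, 9.20 and 9.36 on the wild type arrays against 9.30, 9.25 and 9.30 on the mutant arrays, so that all 3 mutant values lay inside the wild type range. The means were 9.24 ± 0.11 (SD, n = 3) and 9.28 ± 0.03 (SD, n = 3). The log2 fold change was 0.05 (SE 0.08, 95% interval -0.13 to 0.23, adjusted p = 0.902 from limma), the narrowest interval of the 7 genes. Whether *gig* and *Tsc1* differ from each other in their change was not tested.

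*foxo*, the transcription factor that insulin signaling inactivates, had the lowest fold change of the 7. It stood at 8.34, 7.96 and 7.64 on the wild type arrays against 7.65, 7.68 and 7.36 on the mutant arrays. Wild type replicates 1 and 2 lay above every mutant array, but wild type replicate 3 lay among the mutant values. The means were 7.98 ± 0.35 (SD, n = 3) and 7.56 ± 0.18 (SD, n = 3), or -0.42 on the log2 scale (SE 0.19, 95% interval -0.86 to 0.03, adjusted p = 0.47 from limma). Without wild type replicate 1, which held the highest *foxo* value, the change came to -0.24 (adjusted p = 0.639 from limma), and without wild type replicate 3 it was -0.59 (adjusted p = 0.146 from limma).

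*InR*, the insulin receptor, had the widest spread among wild type arrays of the 7 genes. Its values were 9.98, 10.57 and 10.75 on the wild type arrays against 10.21, 10.51 and 10.53 on the mutant arrays, and in both genotypes replicate 1 was the lowest array. The means were nearly equal, at 10.43 ± 0.40 (SD, n = 3) and 10.42 ± 0.18 (SD, n = 3), and differed by -0.02 on the log2 scale (SE 0.21, adjusted p = 0.99 from limma). The 95% interval of -0.52 to 0.48 leaves room for a difference of 0.7-fold to 1.4-fold. *InR* is also the protein-coding gene listed directly beside *E2f1*, the host of *mir-998*, on chromosome arm 3R of the RefSeq table, with only the non-coding RNAs *lncRNA:Irar* and *lncRNA:CR44034* listed between them. On its other side lies *CG15498*, which stood low, at 4.80 to 5.19 in wild type and 5.02 to 5.18 in the mutant, with a log2 fold change of 0.11 (SE 0.11, adjusted p = 0.823 from limma). *E2f1* itself shares its probe set with *Torsin* and is not read here.

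*chico*, which encodes the insulin receptor substrate, stood at 9.01, 9.44 and 9.44 on the wild type arrays against 9.33, 9.29 and 9.42 on the mutant arrays. One wild type array, replicate 1, was low, and the other 2 lay at or above all mutant arrays. The log2 fold change was 0.05 (SE 0.13, 95% interval -0.26 to 0.36, adjusted p = 0.944 from limma). Without wild type replicate 1 it was -0.09 (adjusted p = 0.721 from limma), so its sign is not settled by these arrays.

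*mTor*, the kinase at the center of the pathway, stood at 9.76, 9.62 and 9.38 on the wild type arrays against 9.81, 9.75 and 9.45 on the mutant arrays. The genotypes overlapped, and the means were 9.59 ± 0.19 (SD, n = 3) and 9.67 ± 0.19 (SD, n = 3). The log2 fold change was 0.08 (SE 0.14, 95% interval -0.24 to 0.41, adjusted p = 0.902 from limma).

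*S6k*, the kinase that TORC1 activates to promote translation, stood at 10.18, 10.74 and 10.79 on the wild type arrays against 10.67, 10.74 and 10.79 on the mutant arrays. Replicates 2 and 3 of the genotypes had the same values, and the difference in means, a log2 fold change of 0.16 (SE 0.17, 95% interval -0.23 to 0.56, adjusted p = 0.818 from limma), came from wild type replicate 1. Without that array it was -0.03 (adjusted p = 0.927 from limma).

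The 7 genes thus varied more within wild type than between the genotypes in several cases. Their median SD was 0.25 log2 units among the wild type arrays and 0.12 among the mutant arrays, and the SD was higher in wild type for 5 of the 7. The same lean held over all genes read, where the median SD was 0.14 in wild type and 0.09 in the mutant and 71.6% of genes had the higher SD in wild type. Wild type replicate 1 was the single lowest of the 6 arrays for 4 of the 7 genes, *InR*, *chico*, *S6k* and *Tsc1*, and for 20% of all genes. In that array *InR* lay 0.68, *S6k* 0.59 and *chico* 0.43 below the mean of the other 2 wild type arrays, while *foxo* lay 0.54 and *mTor* 0.26 above it. Mutant replicate 1 lay on the same side of the other 2 mutant arrays for these 5 genes, by less in each case, with differences of -0.31 for *InR*, -0.095 for *S6k*, -0.025 for *chico*, 0.13 for *foxo* and 0.21 for *mTor*. For *gig* the differences were -0.05 in wild type and -0.08 in the mutant, and only for *Tsc1* did they have opposite signs (-0.13 and 0.025).

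Markers of other tissues gave signal on these arrays at unequal levels, on a scale that has no true zero, and in such bulk samples fewer cells of a type and less RNA per cell cannot be told apart. All 11 measured eye disc markers stood at 8.48 or above on every array, with a list mean of 9.98 to 10.60 per array against 3.63 to 3.72 for the bacterial *trp* control probe sets, lowest in wild type replicate 3. All 11 had a log2 fold change above 0 in the mutant, with a median of 0.22, beside 6008 of the 11982 genes read. None was called in limma, against 1.93% of all genes, and 1 had an unadjusted p under 0.05, against 13.9%. The mean of the 8 fat body markers measured (of 11 listed) was 8.31, 7.27 and 6.83 on the wild type arrays against 8.13, 6.87 and 6.55 on the mutant arrays, so that the 2 arrays numbered 1 were the highest. Their summed level, after taking the values off the log scale, ran from 2120 to 5728 in wild type and from 2139 to 4925 in the mutant. The 2 arrays with the most fat body signal were those with the lowest *InR*, and in wild type *foxo* ranked the arrays as the fat body list did, which was not so in the mutant. With the fat body mean as a covariate the estimate was -0.34 for *foxo* (adjusted p = 0.358 from limma) and -0.12 for *InR* (adjusted p = 0.748 from limma). The 9 salivary gland markers summed to 7207 to 47120 in wild type and 6712 to 65610 in the mutant, highest in mutant replicate 1. With their mean as a covariate *gig* stood at 0.37 (adjusted p = 0.243 from limma). The summed markers of hemocytes, the larval blood cells, and of muscle did not overlap between genotypes. The 8 hemocyte markers summed to 1453 to 2409 in wild type and 3109 to 3867 in the mutant. The 5 muscle markers measured (of 9 listed) summed to 11130 to 12820 and 6775 to 9212. Of the hemocyte markers 1, *NimC1*, was called in limma, and no muscle marker was, against 1.93% of all genes. Arrays did not overlap for 5 hemocyte markers, all higher in the mutant, and 4 muscle markers, all lower, against 18.1% of all genes. The part of the eye disc, hemocyte and muscle markers in the values of *gig* and of the pathway genes below was not tested.

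**Figure D2:**
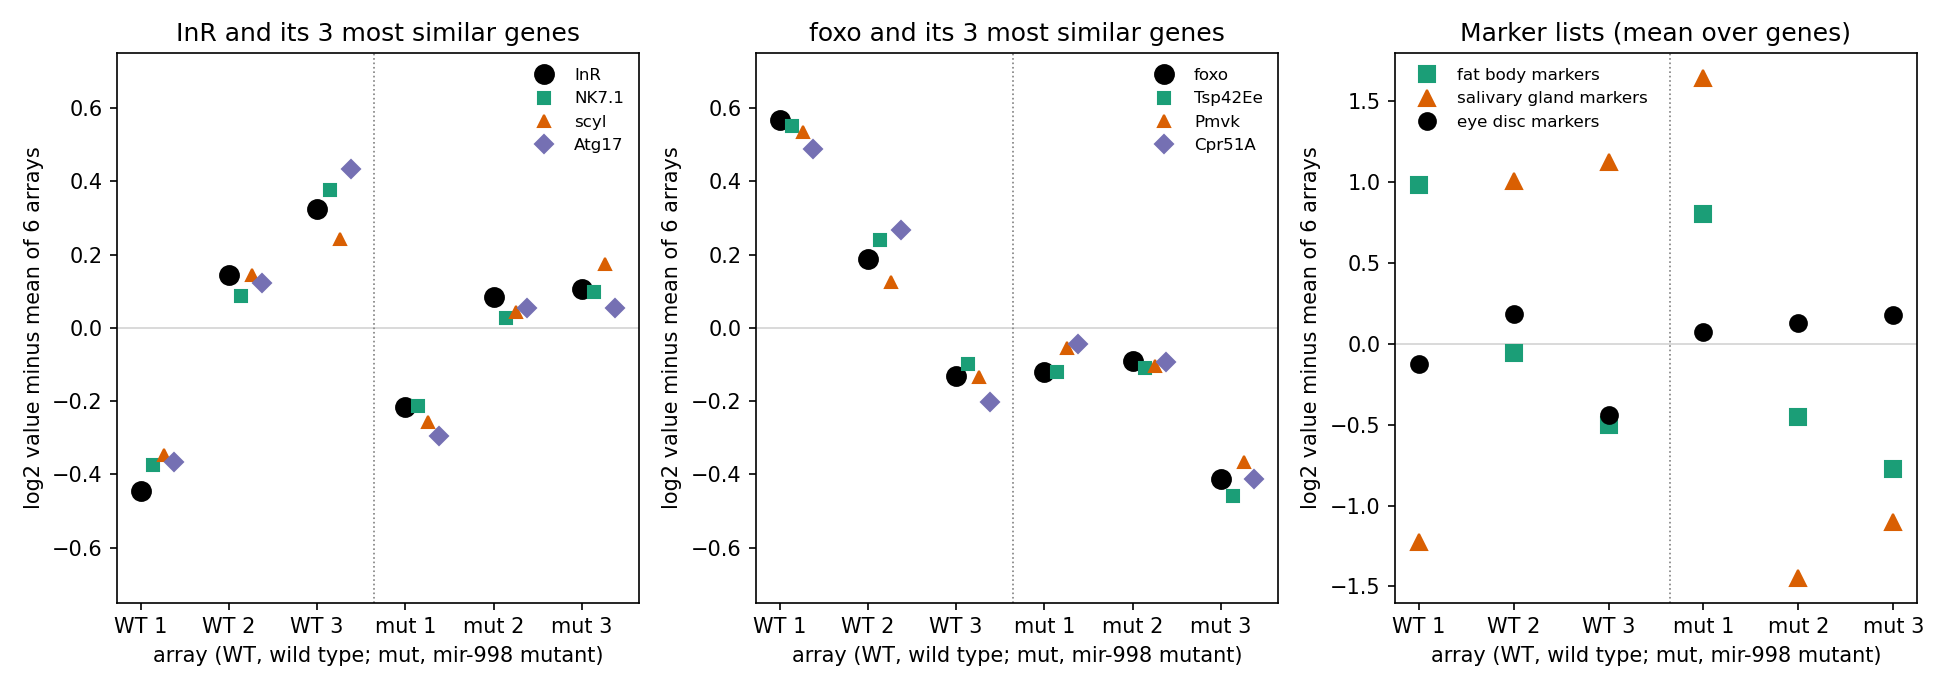
Log2 value minus the mean of the 6 arrays (vertical axis) on each array (horizontal axis; WT, wild type; mut, *mir-998* mutant) for *InR* (left) and *foxo* (middle), each with the 3 genes of the most similar profile, and for the means of 3 marker lists (right, on a wider scale). *InR* is lowest on the 2 arrays numbered 1, where the mean of the fat body markers is highest. *foxo* is highest on wild type replicate 1 (8.34) and lowest on mutant replicate 3 (7.36).

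*InR* and *foxo* had the largest ranges over the 6 arrays, 0.77 and 0.98 log2 units, and the genes with the most similar profile were sought for these 2, by the root mean square difference of the 6 values after each gene's mean was subtracted. For *InR* they were *NK7.1*, a homeobox gene, at 0.05, *scyl*, at 0.06, and *Atg17*, an autophagy gene, at 0.07, where the median over all genes was 0.28. *scyl* is itself a gene of the wider pathway, the fly counterpart of the TOR inhibitor REDD1, and stood at 11.60, 12.09 and 12.19 on the wild type arrays against 11.69, 11.99 and 12.12 on the mutant arrays. For *foxo* they were *Tsp42Ee*, a tetraspanin gene, at 0.03, *Pmvk*, a gene of the mevalonate pathway, at 0.04, and *Cpr51A*, a cuticle protein gene, at 0.06, beside a median of 0.33. The likeness rests on 6 arrays that share their tissue makeup, and no test was made of it.

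The wider pathway was read from lists by role that name 73 genes with the 9 above, of which 53 were measured. Of the 46 measured genes outside the 7, 26 had a log2 fold change above 0 and 20 below it, with a median of 0.02. One of them was called, *Ac76E*, which was lower, while 0.96% of all genes read were called lower and 0.968% higher. At an unadjusted p under 0.05 there were 9 of the 46, against the 13.9% of all genes given above. The arrays of the genotypes did not overlap for 7 of the 46, 5 higher and 2 lower, a share no larger than the 18.1% over all genes (9.37% higher and 8.73% lower).

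*Ac76E* encodes an adenylyl cyclase known in flies as a target of Foxo. It read log2 7.43, 7.72 and 7.92 on the wild type arrays against 5.78, 5.39 and 6.12 on the mutant arrays. All 3 mutant arrays lay more than 1 log2 unit below the lowest wild type array. The means were 7.69 ± 0.25 (SD, n = 3) and 5.76 ± 0.37 (SD, n = 3), and the mutant level was 0.26 of that in wild type (95% interval 0.19 to 0.37). At a log2 fold change of -1.93 and an SE of 0.21 it passed limma (adjusted p = 0.00922). The call ended without wild type replicate 2 (-1.91, adjusted p = 0.0521) or mutant replicate 1 (-1.94, adjusted p = 0.056), and with both arrays numbered 1 left out (-2.07, adjusted p = 0.101), at nearly the same size in each case. With the fat body markers as a covariate it stood at -1.98 (adjusted p = 0.0101 from limma).

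The other measured genes of the Foxo list did not follow *Ac76E* past the threshold. *Lip4*, a lipase gene, spread widely in wild type, at 7.10, 6.45 and 5.54, and stood at 6.14, 6.05 and 5.87 in the mutant, with a log2 fold change of -0.34 (SE 0.37). Its wild type values were highest on replicate 1, as the mean of the fat body list was, although *Lpin* and *Yp1* of that list were lowest there in wild type. *bmm*, the fat storage lipase Brummer, which is also one of the fat body markers, was at 0.14 (SE 0.10), and *Sesn*, the stress-induced TORC1 inhibitor Sestrin, at 0.18 (SE 0.27), with adjusted p-values from 0.703 to 0.896 over these 3 genes in limma.

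**Figure D3:**
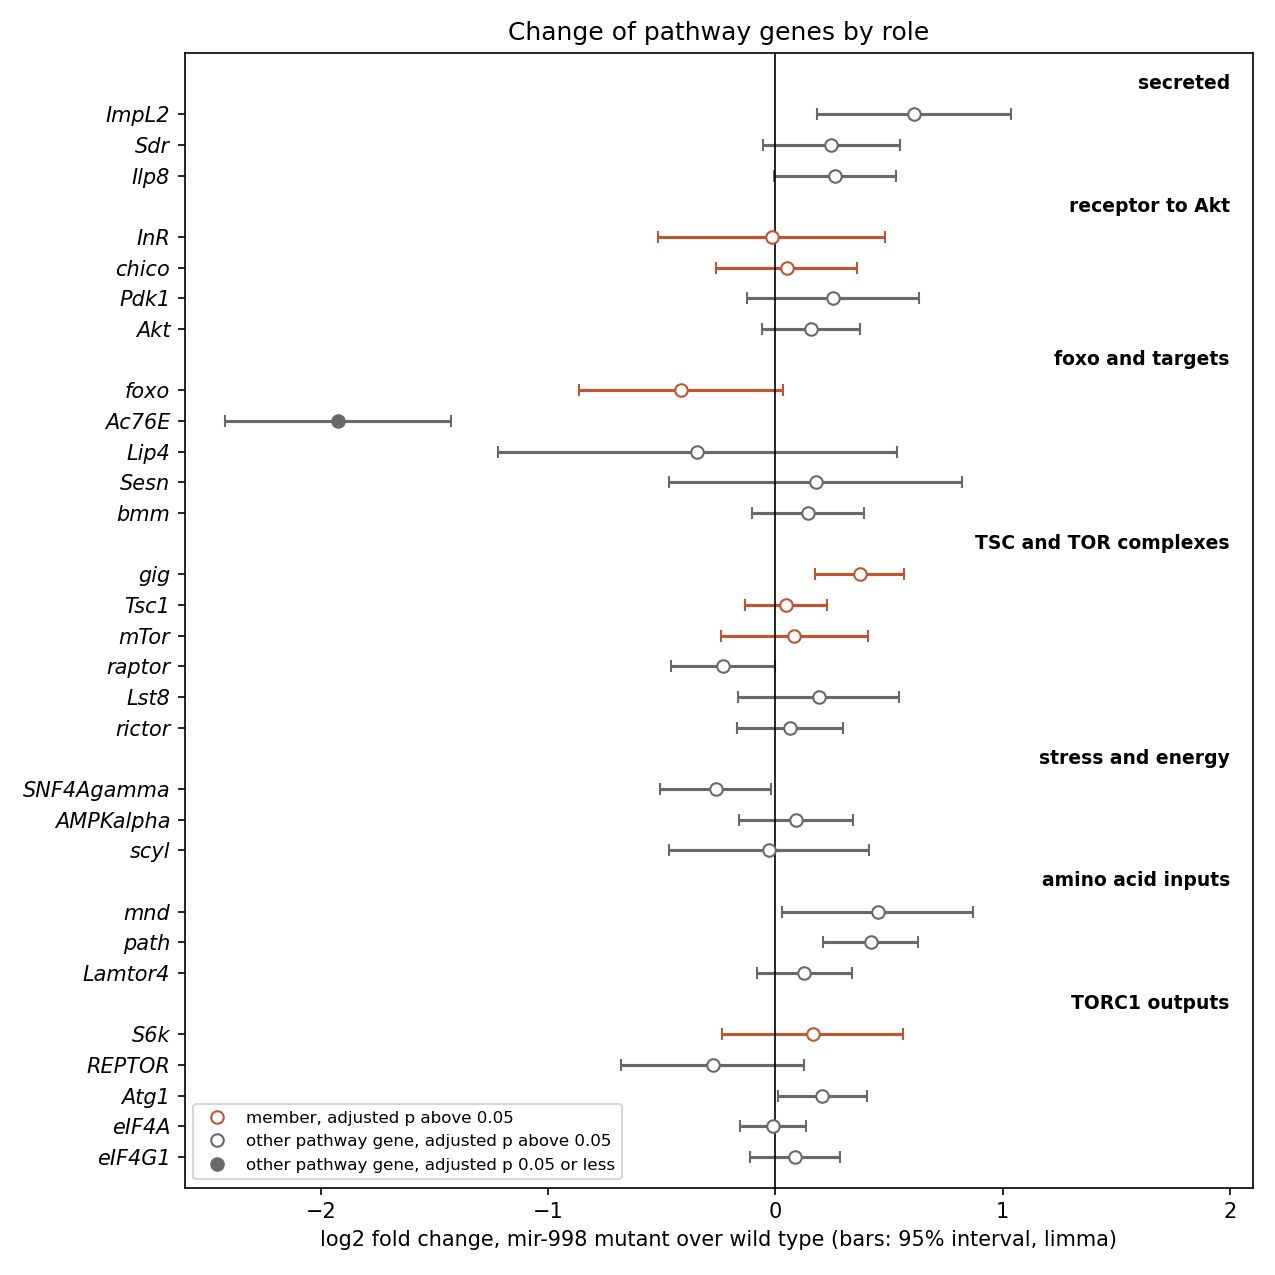
Log2 fold change of the mutant over wild type (horizontal axis; points, with bars for the 95% interval from limma) for the 7 measured genes in orange and for other pathway genes named by a fixed rule in gray, grouped by role. The filled point, *Ac76E* at -1.93, is the only one with an adjusted p at or under 0.05. Of the genes that miss this threshold, *gig*, *path*, *mnd*, *ImpL2* and *Atg1* have intervals above 0. *SNF4Agamma* and *raptor* have intervals below 0, that of *raptor* ending at -3e-04. The genes in gray were named in part for the largest change in their list, and 13.9% of all genes read had an unadjusted p under 0.05 in limma.

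Among the secreted factors, *ImpL2*, which binds insulin-like peptides outside the cell and blocks their action, stood at 11.98, 11.91 and 12.57 on the wild type arrays against 12.67, 12.82 and 12.80 on the mutant arrays. The arrays did not overlap, and wild type replicate 3 lay close to the mutant values. The log2 fold change was 0.61 (SE 0.18, 95% interval 0.18 to 1.04), which did not pass limma (adjusted p = 0.225). Without wild type replicate 3 it was 0.82 and passed (adjusted p = 0.0106), as it did with array weights (0.73, adjusted p = 0.0435). *Sdr*, a secreted decoy of the insulin receptor, was at 0.25 (SE 0.12, adjusted p = 0.541 from limma). Of the peptides themselves 4 were measured. *Ilp2*, *Ilp5* and *Ilp7* stood between 3.90 and 4.89 on all arrays, close to the control level, and their values cannot show how low the transcripts are. *Ilp8*, which discs release to delay metamorphosis, stood at 5.02, 4.99 and 4.92 on the wild type arrays against 5.42, 5.28 and 5.01 on the mutant arrays, with a log2 fold change of 0.26 (SE 0.11, adjusted p = 0.445 from limma).

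Between the receptor and Akt 2 further genes were measured, *Pdk1*, the kinase that activates Akt, at a log2 fold change of 0.25 (SE 0.16), and *Akt* at 0.16 (SE 0.09). The *Akt* arrays did not overlap, at 10.93 to 11.20 in wild type and 11.22 to 11.32 in the mutant, yet the gap between the nearest arrays was smaller than the spread within either genotype. Adjusted p-values in limma were 0.646 and 0.614. In the TOR complexes, *raptor*, the subunit that defines TORC1, stood at a log2 fold change of -0.23 (SE 0.10, adjusted p = 0.423), the shared subunit *Lst8* of 0.19 (SE 0.15, adjusted p = 0.738) and *rictor*, the subunit that defines the second complex, of 0.06 (SE 0.10, adjusted p = 0.897), all from limma. *raptor* read low, at 5.54, 5.38 and 5.33 on the wild type arrays against 5.10, 5.34 and 5.12 on the mutant arrays, and the genotypes overlapped.

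Of the 16 measured genes that carry amino acid signals to TORC1, 10 had a log2 fold change above 0 and 6 below it, with a median of 0.02. *path*, an amino acid transporter that promotes growth, stood at 10.86, 10.79 and 10.84 on the wild type arrays against 11.29, 11.37 and 11.09 on the mutant arrays. The arrays did not overlap, and the difference was 1.34-fold (95% interval 1.16 to 1.55), or 0.42 (SE 0.09) on the log2 scale, with an adjusted p of 0.0941 from limma, above the threshold. *mnd*, a further amino acid transporter, stood at 8.99, 8.66 and 9.38 on the wild type arrays against 9.47, 9.52 and 9.39 on the mutant arrays, with a log2 fold change of 0.45 (SE 0.18, adjusted p = 0.382 from limma). *Lamtor4*, a subunit of the complex that anchors TORC1 at the lysosome, was at 0.13 (SE 0.09, adjusted p = 0.689 from limma). None of the 16 was called, against 1.93% of all genes read, and 4 had an unadjusted p under 0.05, against 13.9%. These 4 were *path*, *mnd*, *Lamtor3*, a further subunit of the lysosomal complex, at 0.33 (SE 0.10, adjusted p = 0.24 from limma), and *slif*, an amino acid transporter that went the other way. *slif* read 6.30, 5.98 and 5.86 in wild type against 5.86, 5.60 and 5.66 in the mutant, a difference of -0.34 (SE 0.13, 95% interval -0.66 to -0.02, adjusted p = 0.382 from limma).

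Of the inputs from stress and energy, *SNF4Agamma*, a subunit of the energy sensor AMPK, stood at 9.38, 9.65 and 9.39 on the wild type arrays against 9.19, 9.11 and 9.33 on the mutant arrays, lower in 3 of 3 mutant arrays without overlap. Its log2 fold change of -0.26 (SE 0.10) did not pass limma (adjusted p = 0.38). The catalytic subunit *AMPKalpha* was at 0.09 (SE 0.10, adjusted p = 0.852 from limma). Among the outputs of TORC1, *REPTOR*, a transcription factor that TORC1 holds inactive, was at -0.28 (SE 0.17, adjusted p = 0.637) and *Atg1*, the kinase that starts autophagy, at 0.21 (SE 0.08, adjusted p = 0.395). The translation factors *eIF4A* and *eIF4G1* were at -0.01 (SE 0.06, adjusted p = 0.979) and 0.09 (SE 0.08, adjusted p = 0.802), all from limma. With its farther bound at 0.16 on either side of 0, the interval of *eIF4A* was the narrowest of the genes named here.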

How the data were processed

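The authors processed Affymetrix Drosophila Genome arrays, 1 per sample, with the rma algorithm of the Bioconductor package affy and deposited log2 expression values for 18952 probe sets; no filter is stated. Common scaling of all arrays can hide a shift shared by most genes. From these log2 values 183 control probe sets were removed, and 18769 went into a limma fit (version 3.58.1, R 4.3.3; lmFit, then eBayes with default settings, two-sided), mutant against wild type, 6 arrays, no covariate, with Benjamini-Hochberg adjustment over all of them and calls at an adjusted p at or under 0.05, as in the study's protocol. The platform's annotation, its symbols brought up to date from RefSeq's table (assembly Release 6), names 1 gene for 13647 probe sets and several for 402, and 4720 are unnamed here. Each gene was read from its probe set with the highest mean. No coordinates are given, since the study used another release. The fit was tested on simulated arrays.

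The members and gene lists were chosen with earlier results of these data known. Named are all measured members, called genes of the wider lists, and in each list the 2 other genes with the largest change and the 2 with the highest mean, the 3 genes most similar to each of 2 members, and the genes beside *InR*. *Ilp2*, *Ilp5*, *Ilp7*, *Lamtor3* and *slif* were named after their values were seen. Replicate numbers of the titles were not used as pairs in the main fit. Deviations of same-numbered arrays from their group means correlated at 0.193, -0.23 and 0.286, which does not settle whether they belong together. Alternatives covered normalization, eBayes settings, removal of dim probe sets, array weights, a replicate block, omission of each array, the rule for genes with several probe sets, the set adjusted over, thresholds and marker covariates. Leaving out both arrays numbered 1 was chosen after seeing the data.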

Additional observations from a re-analysis of the deposited data

How the results depend on the processing

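None of the 7 genes was called under any of the 20 alternatives run, while the 1 pathway gene called, *Ac76E*, and the 231 genes called in all did vary. Array weights gave 2 pathway genes and 373 genes, a threshold of 0.1 gave 2 and 366, and a threshold of 0.01 gave 85 genes. The salivary gland covariate gave 122 genes, and leaving out both arrays numbered 1 gave 0 pathway genes and 50 genes. With 1 array left out at a time the counts ran from 0 to 2 pathway genes and from 90 to 323 genes, with 135 genes without wild type replicate 2 and 92, 90 and 100 without mutant replicates 1, 2 and 3. Such fits have fewer arrays. The cause of the other shifts was not tested.

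*gig* kept its sign in all 18 refits, at 0.30 to 0.41 (adjusted p from 0.0734 to 0.479), and so did *foxo*, at -0.59 to -0.24. For 5 of the 7 the sign turned under some alternative. *InR* stood at 0.0133 after subtraction of array medians and 0.0125 with the salivary gland covariate, *chico* at -0.0086 with array weights and -0.085 without both arrays numbered 1, and *Tsc1* at -0.005 there. With 1 array left out *InR* ran from -0.24 to 0.14, *chico* from -0.0933 to 0.12, *S6k* from -0.0317 to 0.27 and *mTor* from -0.02 to 0.19. Of other named genes, *scyl* was 0.0033 and *eIF4A* 0.02 after subtraction of medians, and *rictor* was -0.0079 with array weights and -0.01 without both arrays numbered 1. With 1 array left out the ranges were -0.21 to 0.10 for *scyl*, -0.0317 to 0.0133 for *eIF4A*, -0.02 to 0.16 for *rictor*, -0.755 to 0.025 for *Lip4*, -0.0217 to 0.16 for *AMPKalpha*, -0.26 to 0.11 for *NK7.1* and -0.34 to 0.0583 for *Atg17*.

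Whether the numbers in the titles pair the arrays is not settled by these values. Over all probe sets the deviations of same-numbered arrays correlated with mixed signs. The mean of the fat body list fell from replicate 1 to replicate 3 in both genotypes, but *Lpin* of that list rose in both. With the replicate block *gig* stood at 0.37 (adjusted p = 0.106), *foxo* at -0.42 (adjusted p = 0.213) and *Ac76E* at -1.93 (adjusted p = 0.0164), 224 genes were called in all, and no call among the named genes changed. Over its 18 refits *Ac76E* ran from -2.11 to -1.74 (adjusted p from 0.00339 to 0.101) and *ImpL2* from 0.49 to 0.82 (adjusted p from 0.0106 to 0.673). Signal near the level of the control probe sets limits what *Ilp2*, *Ilp5* and *Ilp7* can show.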
